A study of Ovis aries with 6 samples.

Results

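The Wnt set comprised 51 of the 23144 rows of the gene table of longissimus dorsi, the long muscle of the back, from sheep of the breeds Qianhua Mutton Merino (QHMM) and, for comparison, Small Tail Han (STH). It was chosen by gene symbol alone: every symbol beginning with WNT, FZD, SFRP, DKK, DVL or AXIN and a number, or with TCF7, and in addition LRP5, LRP6, CTNNB1, APC, GSK3B, BCL9, BCL9L, WIF1 and FRZB. LEF1 belongs to the rule too, but no row carries that exact symbol. The set held 18 ligands, 9 frizzled receptors, 2 LRP co-receptors, 10 secreted inhibitors, 8 cytoplasmic transducers and 4 nuclear effectors. The rule itself used no measured value, although it was drawn up with earlier results of these data known. QHMM is a recently bred sheep for mutton and wool, and STH is an older local breed. Each breed was represented by 3 females aged 1 year kept in the same surroundings, and each animal gave 1 library of poly(A)-selected RNA read on an Ion Proton instrument. No treatment is described, and breed was the only difference that the labels give. In both breeds, the study's methods give live weight as taken after a fast and before slaughter. Differences are those of STH vs. QHMM.

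Wnt proteins are secreted, lipid-modified ligands that bind frizzled receptors at the cell surface, together with LRP5 or LRP6 in the branch that acts through beta-catenin. In the absence of a ligand, a cytoplasmic complex of axin, APC, GSK3 and casein kinase marks beta-catenin for degradation. When a ligand binds, dishevelled is recruited, the complex is inhibited, and beta-catenin enters the nucleus, where it acts with TCF/LEF factors and BCL9 proteins. In skeletal muscle the pathway is known for its part in the formation of embryonic muscle, in the behaviour of satellite cells during repair, and in the choice of mesenchymal cells between fibrous and fat lineages.

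The libraries held 10982191 to 14334544 gene counts each. Of all genes, 12506 passed the filter on low counts and were tested with edgeR's quasi-likelihood test. A gene was called at an FDR (Benjamini-Hochberg, over all tested genes) below 0.05 with a fold change above 1.5. In total, 432 genes were called (3.45%), 229 lower in STH (1.83%) and 203 higher (1.62%). The first principal component of all tested genes (44.1% of the variance) separated the breeds, while the second (19.1%) set QHMM replicate 2 and STH replicate 3 apart from the other libraries of their breeds. Counts of calls and the called members are given with and without this pair of libraries. Muscle fibre markers supplied 180455 to 232624 CPM (counts scaled to the TMM-normalized library total) in the QHMM libraries and 122409.8 to 243184 in STH. The markers ACTA1, CKM, DES, TTN, MYLPF and the myosin heavy chain row OMYHCS were measured, and MYH1, MYH2, MYH7 and MB had no row. These genes were thus abundant in every library of the labelled tissue.

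Wnt signalling components were a minor part of the muscle transcriptome, between 0.0479% and 0.0858% of the counts of a library. In the RPKM values of the authors, which are scaled for gene length, 7 members had a mean of at least 10, 27 of at least 1 and 24 were below 1. The most abundant was DVL1 (mean RPKM 67.1), a dishevelled protein that relays the receptor signal, followed by CTNNB1 (34.5), which encodes beta-catenin, and the receptor gene FZD4 (29.3). DVL3, LRP5, FRZB and AXIN1 came next, with mean RPKM from 10.2 to 13.6. At least 1 read was found for 46 members, and 33 passed the filter and were tested. The other 18 comprised 14 ligands, the receptor FZD5 and the inhibitors DKK1, DKK4 and WIF1. Of the tested members, 27 were above the filter's threshold in all 3 libraries of both breeds, while AXIN2, SFRP1 and SFRP2 were so in QHMM alone, the breed with their higher values.

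**Figure D1:**
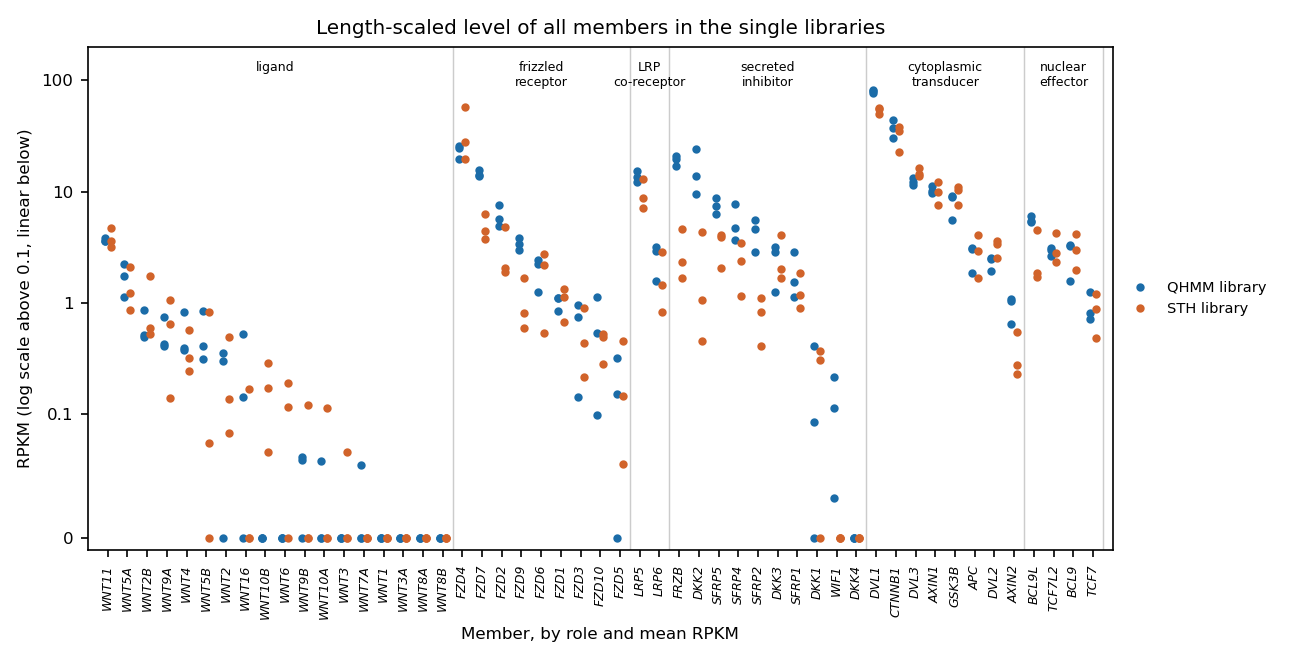
RPKM (counts scaled for gene length and library total, log scale above 0.1) of all 51 members in each library, grouped by role and ordered by mean; blue points are the 3 QHMM and orange points the 3 STH libraries. Ligands lie below 5 RPKM and mostly below 1, receptors and transducers reach higher levels, and among the inhibitors the blue points of FRZB and DKK2 lie well above the orange ones.

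Each member that passed the test was lower in STH. Of the 33 tested members, 5 were called, all lower in STH (15.2%, against 1.83% of all tested genes). These were the secreted inhibitors FRZB, SFRP2 and DKK2 and the receptors FZD7 and FZD9. None was called higher (1.62% of all genes), and edgeR gave 0 members an unadjusted p below 0.05 in that direction. DESeq2, run as an alternative, called 9 of 36 members with an adjusted p lower (3.91% of all genes it tested) and 0 higher (2.97%). An unadjusted p below 0.05 was found for 12 members (36.4%, against 19.2% of all genes). All 3 STH libraries lay below all 3 QHMM libraries for 13 members (39.4%, against 11.7%) and above them for 1, GSK3B (13.0% of all genes). For the remaining 19 tested members the breeds overlapped. The fitted change was negative for 26 members (78.8%, against 48.2% of all genes), and the median log2 fold change was -0.38, against 0.02 for all genes. On the RPKM scale, 5 of these signs, those of APC, DKK3, TCF7L2, WNT11 and FZD1, turned positive. SFRP2, AXIN2 and SFRP1 had passed the filter through QHMM alone. Of the other 30 members, 4 were called lower (13.3%), 10 had an unadjusted p below 0.05 (33.3%), 11 had all STH libraries below QHMM (36.7%) and 23 had a negative change (76.7%).

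The number of calls depended on the libraries used. Without QHMM replicate 2 and STH replicate 3, 0 of 34 tested members were called by edgeR. In that fit, 6 of 12728 genes were called lower (0.0471%) and 5 higher (0.0393%). An unadjusted p below 0.05 was found for 10 of the 34 members, all lower. Of the 12728 genes, 1121 had such a p with lower and 836 with higher values. With single libraries left out, the share of all genes called changed too. Lower in STH were 2 members without QHMM replicate 1 (5.88%, against 0.635% of all genes), 3 without QHMM replicate 3 (8.33%, against 0.632%) and 3 without STH replicate 2 (8.57%, against 0.692%). There were 4 without QHMM replicate 2 (11.4%, against 0.970%), 5 without STH replicate 3 (14.3%, against 1.41%) and 7 without STH replicate 1 (20.6%, against 1.98%). Because the tissue was sequenced in bulk, fewer cells of an expressing type and less RNA per cell cannot be told apart in any of these values. Animals were sampled separately but only 3 per breed, so that an exact permutation test of a single value could not fall below p = 0.10.

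**Figure D2:**
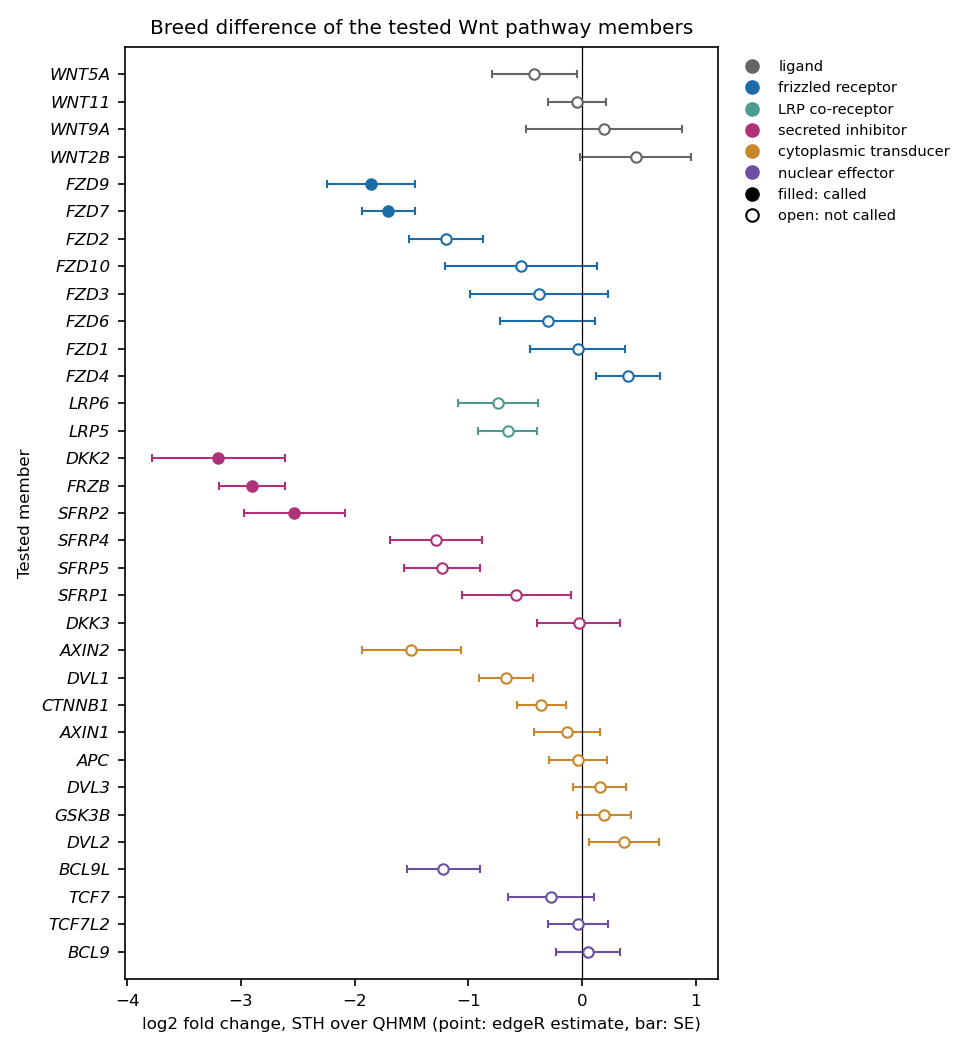
Log2 fold change (STH over QHMM, x axis) of each of the 33 tested members, with the edgeR estimate as a point and its SE as a bar; colours give the role, and filled points mark called members. The filled points are FRZB, SFRP2 and DKK2 among the inhibitors and FZD7 and FZD9 among the receptors, all left of 0, and the ligands lie around 0.

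Secreted inhibitors had the most negative median change of the 6 roles. They bind Wnt ligands or receptors outside the cell, and 10 were in the table. Of these, 7 were tested, 3 were called (1.83% of all genes were called lower), 5 had an unadjusted p below 0.05 (19.2% of all genes), and all 7 had a negative change (48.2% of all genes), although that of DKK3 turned positive on the RPKM scale (median log2 fold change -1.28). Summed over the family, RPKM was 72.1, 42.5 and 56.0 in QHMM replicates 1 to 3 and 23.8, 9.98 and 12.6 in STH, without overlap. SFRP1 and SFRP2 are among the 7 and passed the filter through QHMM alone.

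FRZB, also known as SFRP3, encodes a secreted protein with a frizzled-like domain that sequesters Wnt ligands. It had 658, 639 and 604 TMM-normalized counts in QHMM replicates 1 to 3 and 124, 66.8 and 62.2 in STH. The breeds were far apart, with means of 634 ± 27.2 and 84.2 ± 34.2 (SD, n = 3 each). FRZB was 7.46-fold lower in STH (log2 fold change -2.90, SE 0.29, FDR = 0.00231) and had the lowest FDR of the set. It was called in each of the 6 fits that left out 1 library (FDR from 0.000692 to 0.0101), but not without both libraries that stood apart (log2 fold change -2.73, FDR = 0.0604).

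DKK2, a dickkopf protein that binds LRP5 and LRP6, had 649, 305 and 364 normalized counts in QHMM and 99.1, 26.5 and 14.5 in STH. Its STH libraries spread widely, from 14.5 to 99.1, yet all lay below the lowest QHMM library. DKK2 had the largest change of any tested member, 9.17-fold lower in STH (log2 fold change -3.20, SE 0.58, FDR = 0.0193). The call was lost without QHMM replicate 1 (FDR = 0.0569) or STH replicate 2 (FDR = 0.0527), and without the pair that stood apart (log2 fold change -3.00, FDR = 0.101). Other dickkopf members did not share this pattern: DKK3, whose link to Wnt signalling is less direct, had 98.3, 46.5 and 86.6 normalized counts in QHMM and 106, 47.7 and 73.4 in STH (log2 fold change -0.029, SE 0.37, FDR = 0.976). DKK1 had at most 4 counts in any library, and DKK4 had 0 in all.

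Secreted frizzled-related proteins bind Wnt ligands through a cysteine-rich domain like that of the receptors. SFRP2 had 62.9, 38.3 and 51.4 normalized counts in QHMM and 10.6, 4.24 and 11.1 in STH. Each STH library was below each QHMM library, and SFRP2 was 5.78-fold lower in STH (log2 fold change -2.53, SE 0.44, FDR = 0.0166). The call was lost without QHMM replicate 1 (FDR = 0.0623) or replicate 3 (FDR = 0.0529), and without the pair that stood apart (log2 fold change -2.89, FDR = 0.0855). SFRP2 passed the filter through its QHMM libraries alone.

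SFRP4 and SFRP5 were not called, although their breeds did not overlap. SFRP4 had 139, 77.8 and 82.6 normalized counts in QHMM and 52.4, 19.1 and 51.1 in STH (log2 fold change -1.28, SE 0.40, FDR = 0.111). SFRP5, known as a Wnt antagonist secreted by fat cells, had 144, 121 and 119.9 in QHMM and 54.0, 30.7 and 78.9 in STH (log2 fold change -1.23, SE 0.33, FDR = 0.0730), and was called only without STH replicate 3 among the single-library exclusions (log2 fold change -1.58, FDR = 0.0418). DESeq2 called both (FDR = 0.0423 for SFRP4 and 0.0203 for SFRP5). Without the pair that stood apart, edgeR gave log2 fold change -1.62, FDR = 0.214 for SFRP4 and log2 fold change -1.63, FDR = 0.118 for SFRP5. SFRP1, another member of this family, overlapped between breeds, with 15.9, 13.9 and 29.2 in QHMM and 16.4, 8.48 and 14.5 in STH (log2 fold change -0.58, SE 0.48, FDR = 0.559). WIF1, which binds Wnt ligands directly, had 1, 6 and 3 counts in QHMM and 0 in each STH library, too few to test.

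**Figure D3:**
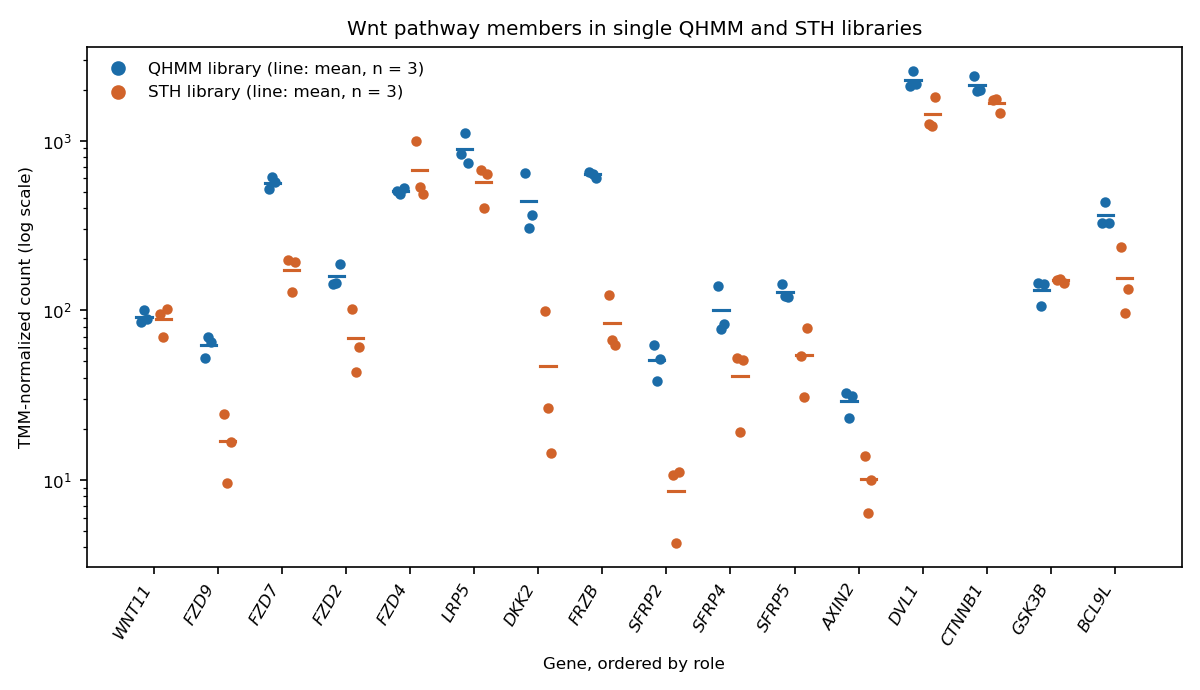
TMM-normalized counts (log scale) of 16 members (those called, those with an unadjusted p below 0.05, those whose breeds were apart at a mean of at least 20 counts, and the most abundant of each role), each point a library and each line the mean of 3 libraries. For FRZB, DKK2, SFRP2, FZD7 and FZD9 the orange STH points lie below the blue QHMM points with a wide gap, whereas for FZD4 and WNT11 the breeds overlap.

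Frizzled receptors are membrane proteins that bind Wnt ligands. Of 9 in the table, 8 were tested, and 2 were called, both lower in STH (1.83% of all genes). FZD7, a receptor known from muscle satellite cells, had 518, 607 and 568 normalized counts in QHMM and 197, 128 and 193 in STH. The ranges were well separated, and the difference was 3.26-fold (log2 fold change -1.70, SE 0.23, FDR = 0.00626). FZD7 was called in each of the 6 fits without 1 library (FDR from 0.00738 to 0.0251), and not without the pair that stood apart (log2 fold change -1.75, FDR = 0.0796).

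FZD9 was less abundant, with 52.3, 69.7 and 65.5 normalized counts in QHMM and 24.6, 9.54 and 16.7 in STH. The breeds did not overlap, and FZD9 was 3.62-fold lower in STH (log2 fold change -1.85, SE 0.39, FDR = 0.0321). Among the 6 single-library exclusions it was called only without STH replicate 1 (FDR = 0.0214). Without any of the other 5 libraries its FDR was 0.0664 to 0.0954, and without the pair that stood apart it was 0.185 (log2 fold change -1.76). FZD2 also separated the breeds, with 143, 145 and 188 in QHMM and 102, 43.5 and 61.1 in STH. It was not called (log2 fold change -1.20, SE 0.32, FDR = 0.0732) except without STH replicate 1 (FDR = 0.0241), and DESeq2 called it (FDR = 0.0184). Without the pair, edgeR gave FZD2 a log2 fold change -1.19, FDR = 0.271.

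FZD4, a receptor for Norrin as well as Wnt ligands and prominent in blood vessels, was the most abundant frizzled gene and behaved otherwise. It had 508, 484 and 528 normalized counts in QHMM and 1001, 530.0 and 484 in STH. STH replicate 1 stood far above the rest, and the other STH libraries were at the edges of the QHMM range. The change did not pass (log2 fold change 0.41, SE 0.28, FDR = 0.474), and without STH replicate 1 it was -0.016. FZD1, FZD3, FZD6 and FZD10 overlapped between breeds, with log2 fold changes from -0.53 to -0.037 and SE from 0.42 to 0.67. FZD5 had at most 9 counts in any library.

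The make-up of the receptor family, on the RPKM scale, differed between breeds. Among all frizzled genes, FZD4 took 46.8, 44.5 and 44.4% of the summed RPKM in QHMM replicates 1 to 3 and 75.6, 73.3 and 66.8% in STH. FZD7 took 26.8, 31.3 and 26.8% in QHMM and 8.35, 9.95 and 15.0% in STH. The breeds did not overlap in either share, and the ratio of FZD4 to FZD7, which library scaling does not alter, was 1.61 ± 0.169 in QHMM and 6.96 ± 2.32 in STH (SD, n = 3 each). A ratio shows unequal change only, and shares of the same sum are not independent of each other. FZD7 was itself called lower, so its share and this ratio are not separate results. How often other gene pairs fail to overlap was not counted, here or for the ratios given below. The summed RPKM of the receptors, 52.6, 44.4 and 58.7 in QHMM and 75.9, 38.2 and 29.6 in STH, overlapped between breeds.

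Set against the receptors, the inhibitors were lower in STH. The summed RPKM of inhibitors divided by that of frizzled receptors was 1.37, 0.957 and 0.955 in QHMM and 0.313, 0.261 and 0.428 in STH, without overlap. Within the inhibitors, FRZB and DKK2 together held most of the RPKM in QHMM, FRZB with 29.1, 40.3 and 35.0% and DKK2 with 33.4, 22.4 and 24.5%. In STH, FRZB held 19.6, 23.3 and 13.2% and DKK2 18.3, 10.7 and 3.57%, both below the QHMM libraries. The shares of SFRP5, 12.3, 14.7 and 13.4% in QHMM and 16.6, 20.7 and 32.4% in STH, and of DKK3, 4.42, 2.98 and 5.10% and 17.1, 16.9 and 15.9%, were larger in STH, where the summed RPKM was smaller.

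**Figure D4:**
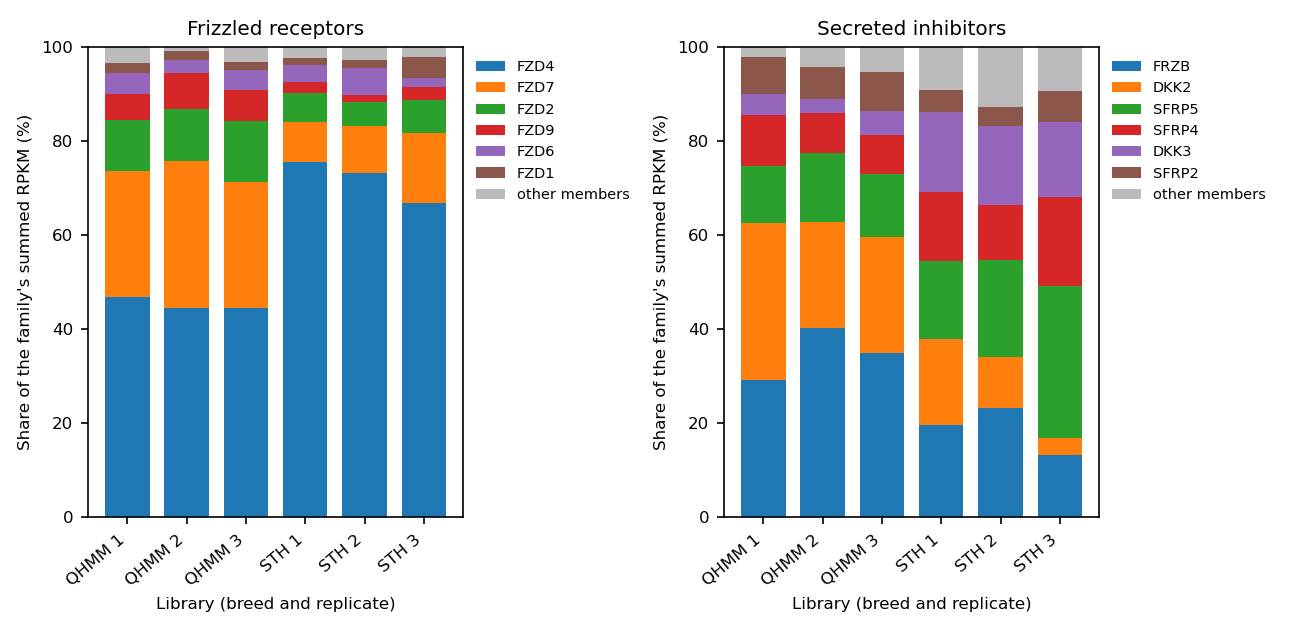
Share of the family's summed RPKM (percent, y axis) taken by each frizzled receptor (left) and each secreted inhibitor (right) in the 6 libraries; the 6 members with the largest mean share are coloured and the rest are grey. FZD4 takes 44.4% to 46.8% of the receptor sum in QHMM and 66.8% to 75.6% in STH, and the shares of FRZB and DKK2 among the inhibitors are smaller in STH.

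LRP5 and LRP6 are the co-receptors that pass the ligand signal to beta-catenin. LRP5 was the more abundant (mean RPKM 11.7 against 2.14). It had 838, 1113 and 738 normalized counts in QHMM and 676, 401 and 635 in STH. The breeds did not overlap, but the gap between the nearest libraries was small and the change was not called (log2 fold change -0.65, SE 0.26, FDR = 0.200). LRP6 had 215, 125 and 192 in QHMM and 163, 89.0 and 66.7 in STH, so that the breeds overlapped (log2 fold change -0.74, SE 0.35, FDR = 0.283).

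Ligand transcripts were few. Of 18 WNT genes, 4 were tested and 0 were called by edgeR or by DESeq2, with 0 of 4 at an unadjusted p below 0.05. WNT11, a ligand known mainly for signalling that does not use beta-catenin, was the most abundant (mean RPKM 3.77). It had 85.9, 101 and 88.6 normalized counts in QHMM and 95.0, 70.0 and 102 in STH. These ranges overlapped (log2 fold change -0.043, SE 0.26, FDR = 0.951). Of the others, WNT5A, which also acts without beta-catenin, had 46.1, 27.9 and 35.3 in QHMM and 36.8, 23.3 and 21.1 in STH, again with overlap (log2 fold change -0.42, SE 0.38, FDR = 0.592). WNT2B and WNT9A had mean RPKM of 0.794 and 0.574 and log2 fold changes of 0.47 (SE 0.49) and 0.19 (SE 0.69).

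WNT1, WNT3A, WNT8A and WNT8B had 0 counts in all libraries, and WNT3, WNT6, WNT7A, WNT9B and WNT10A had at most 3 in any library. At these depths, a count of 0 allows up to 3 counts per library. WNT4, a developmental ligand, had 10, 20 and 9 counts in QHMM and 14, 5 and 8 in STH. WNT2 had 11, 0 and 8 counts in QHMM and 14, 2 and 4 in STH, and WNT5B 12, 4 and 5 and 1, 9 and 0. These breeds overlapped. WNT10B, known as a brake on fat cell formation, had 0 counts in QHMM and 4, 2 and 1 in STH, and WNT16 had at most 7 in any library. Neither could be tested.

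Cytoplasmic transducers, the best expressed role, gave no called member. All 8 were tested and 0 were called by edgeR or by DESeq2, with 2 at an unadjusted p below 0.05 (19.2% of all genes). CTNNB1 had 2418, 1965 and 1993 normalized counts in QHMM and 1748, 1767 and 1463 in STH. Its STH libraries all lay below QHMM, by 1.28-fold on average, but the change was not called (log2 fold change -0.36, SE 0.22, FDR = 0.402). DVL1 likewise had 2089.7, 2589.9 and 2151 in QHMM and 1262, 1222 and 1812 in STH (log2 fold change -0.67, SE 0.24, FDR = 0.156). Its relatives DVL2 and DVL3 overlapped between breeds with positive log2 fold changes of 0.37 (SE 0.31) and 0.16 (SE 0.23). The RPKM ratio of DVL1 to DVL3 was 6.31, 6.10 and 7.12 in QHMM and 4.03, 3.01 and 3.94 in STH, without overlap.

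AXIN2 encodes a scaffold of the destruction complex and is itself a widely used transcriptional target of beta-catenin. It had 37, 20 and 31 counts in QHMM and 17, 6 and 9 in STH. The breeds did not overlap (log2 fold change -1.50, SE 0.44, FDR = 0.0899), but AXIN2 was not called, with counts near the limit of the filter, which it passed through QHMM alone. AXIN1, the more abundant scaffold (mean RPKM 10.2 against 0.639), overlapped between breeds (log2 fold change -0.13, SE 0.29, FDR = 0.856), as did APC (log2 fold change -0.036, SE 0.26, FDR = 0.959). GSK3B, the kinase that phosphorylates beta-catenin, had 144, 106 and 143 in QHMM and 151, 154 and 146 in STH. It was the 1 tested member with all STH libraries above QHMM, by 1.14-fold (log2 fold change 0.19, SE 0.24, FDR = 0.708).

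Among the nuclear effectors, 4 were tested and 0 were called by edgeR, with 1 at an unadjusted p below 0.05 (19.2% of all genes). DESeq2 called 1, lower in STH (3.91% of all genes it tested). BCL9L, a co-activator that binds beta-catenin, had 326, 438 and 325 normalized counts in QHMM and 235, 96.5 and 134 in STH. The breeds did not overlap (log2 fold change -1.22, SE 0.32, FDR = 0.0663). BCL9L was called without STH replicate 1 (log2 fold change -1.67, FDR = 0.0159) and by DESeq2 (FDR = 0.00829), and not without the pair that stood apart (log2 fold change -0.98, FDR = 0.328). Its relative BCL9 (log2 fold change 0.053, SE 0.28, FDR = 0.944) and the DNA-binding factors TCF7 (log2 fold change -0.27, SE 0.38, FDR = 0.749) and TCF7L2 (log2 fold change -0.034, SE 0.26, FDR = 0.962) overlapped between breeds. A row named LEF-1, paired with LEF1 in the authors' annotation column, was picked after its values were seen and passed the filter through QHMM alone. It had 22.1, 15.1 and 33.2 in QHMM and 13.9, 7.42 and 4.45 in STH (log2 fold change -1.41, SE 0.53, FDR = 0.177). A row named TCF3, paired in that column with TCF7L1, was also picked after its values were seen. It had 117, 128 and 99.7 and 66.3, 60.4 and 77.8 (log2 fold change -0.75, SE 0.25, FDR = 0.134). Unnamed rows paired there with FZD3 (6, 0 and 1 counts in QHMM and 5, 8 and 2 in STH), WNT7B (at most 2 counts) and WNT10B (0 counts) were too low to test.

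Other genes of the pathway were examined from lists written for this work. Of 73 in the table, 59 were tested, and 1 was called, higher in STH (1.62% of all genes were called higher). RNF146, a ubiquitin ligase that removes axin, had 209, 206 and 332 normalized counts in QHMM and 556, 685 and 594 in STH. It was 2.45-fold higher in STH, without overlap (log2 fold change 1.30, SE 0.25, FDR = 0.0218). The call was lost without QHMM replicate 1 (FDR = 0.0913), QHMM replicate 2 (FDR = 0.0814) or STH replicate 2 (FDR = 0.0626), and without the pair that stood apart (FDR = 0.164). Of the others, 4 had an unadjusted p below 0.05 with lower and 4 with higher values in STH (19.2% of all genes, in either direction). By group, 0 of 2 tested genes of Wnt secretion were called, 0 of 11 co-receptors and receptor modulators such as the ROR receptors and R-spondins, 0 of 4 further extracellular inhibitors, 0 of 12 nuclear partners and 0 of 15 genes of the planar polarity branch, with 1 of 15 cytoplasmic genes. DESeq2 called 2 of the whole list, both higher in STH (2.97% of all genes it tested).

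Known transcriptional targets of beta-catenin gave no call. Of 17 in the table, 11 were tested and 0 were called by edgeR. At an unadjusted p below 0.05, 2 were lower and 2 higher in STH (19.2% of all genes, in either direction). DESeq2 called 1 lower (3.91% of all genes it tested) and 1 higher (2.97%). CCND1 (cyclin D1) had 53.1, 37.2 and 27.2 normalized counts in QHMM and 17.2, 6.36 and 8.89 in STH (log2 fold change -1.82, SE 0.47, FDR = 0.0642). MYC had 499.6, 163 and 41.3 in QHMM and 1196, 1490.5 and 1092 in STH (log2 fold change 2.42, SE 0.64, FDR = 0.0667). FOSL1, an AP-1 subunit, had 10.6, 5.81 and 2.01 in QHMM and 37.7, 15.9 and 28.9 in STH (log2 fold change 2.12, SE 0.59, FDR = 0.0779), and CD44, a cell surface receptor, had 617, 501 and 417 and 353, 275 and 358 (log2 fold change -0.64, SE 0.23, FDR = 0.155). The breeds did not overlap for any of these 4 genes, which were named after their values were seen. Of all genes, 11.7% had all STH libraries below QHMM and 13.0% above. CCND1 passed the filter through QHMM alone and FOSL1 through STH alone. In sign, 2 of these 4 genes were negative and 2 positive. Of all 11 tested targets, 8 were negative and 3 positive, where 48.2% of all genes were negative. The median log2 fold change of the 11 was -0.14, against 0.02 for all genes.

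Some markers of other cells of muscle also differed between breeds. Of 7 adipocyte markers, 4 were called lower in STH (ADIPOQ, PLIN1, LEP and CIDEC, against 1.83% of all genes) and 0 higher. The summed level of the 7 was 299.8 to 689 CPM in QHMM and 198 to 225 in STH, without overlap. No adipocyte marker was at 0 in every library. LEP had 84, 11 and 24 counts in QHMM and 5, 0 and 1 in STH, and passed the filter through QHMM alone. Of the other 3, LPL was not called (log2 fold change -1.66, SE 0.48, FDR = 0.0851), and FABP4 (log2 fold change -0.04, SE 0.61, FDR = 0.980) and PLIN4 (log2 fold change 0.046, SE 0.25, FDR = 0.946) overlapped between breeds. Of 8 fibroblast and fibro-adipogenic markers, 0 were called by edgeR and 3 by DESeq2, with 3 lower and 1 higher at an unadjusted p below 0.05. Of all genes, DESeq2 called 3.91% lower and 2.97% higher, and 19.2% had such a p in edgeR. The sum of the fibroblast markers was 1126 to 1721 CPM in QHMM and 558 to 1197 in STH, with overlap. The part of fat and connective tissue cells in the lower FRZB, SFRP2, DKK2, SFRP4 and SFRP5 values was not tested. Without the pair of libraries that stood apart, 0 adipocyte markers were called.

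Of the other marker lists, 1 of 4 satellite cell markers was called higher (1.62% of all genes), CDH15 (112, 134 and 119.9 normalized counts in QHMM and 185, 305 and 308 in STH, FDR = 0.0448), and 1 of 6 muscle fibre markers was called lower (1.83% of all genes), OMYHCS. Neither was called without the pair that stood apart (FDR = 0.208 for CDH15 and 0.0962 for OMYHCS). PAX7, the defining satellite cell marker, had 33.7, 4.65 and 15.1 normalized counts in QHMM and 10.6, 4.24 and 4.45 in STH, with overlap (log2 fold change -1.43, SE 0.70, FDR = 0.294), and MYF5 (log2 fold change -0.0084, SE 0.54, FDR = 0.994) and SPRY1 (log2 fold change 0.43, SE 0.26, FDR = 0.401) overlapped too. The summed satellite cell markers were 32.2 to 50.8 CPM in QHMM and 55.1 to 64.8 in STH. Whether satellite cells bear on FZD7 was not tested. Of 4 endothelial markers, 0 were called, and their sums were 576 to 601 and 624 to 729.9 CPM. The sum was highest in STH replicate 1, the library with the highest FZD4. Log2 fold changes of the single markers were 0.67 for EMCN, 0.40 for VWF, 0.040 for PECAM1 and -0.22 for CDH5. EMCN, VWF and PECAM1 were highest in that library, but CDH5 was not (1538 normalized counts, against 1936 in QHMM replicate 1). Whether endothelial cells bear on FZD4 was not tested. None was called among 7 smooth muscle and pericyte markers (309.8 to 668 and 382 to 615 CPM), 6 Schwann cell markers (67.2 to 113 and 45.0 to 91.1 CPM), 2 tendon markers (159 to 452 and 152 to 205 CPM) or 6 macrophage and leukocyte markers (78.7 to 103 and 61.2 to 100.2 CPM). At an unadjusted p below 0.05 (19.2% of all genes), edgeR placed 1 endothelial marker higher, and 1 each of the smooth muscle, tendon and leukocyte markers lower.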

How the data were processed

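Longissimus dorsi RNA of 3 QHMM and 3 STH females was sequenced on Ion Proton, with 1 library per animal. The authors mapped the filtered reads to the sheep genome Oar 3.1, retained those with a unique position, and deposited gene counts without normalization. The authors also deposited RPKM values, which divide the counts by gene length and library total. The aligner, the counting program, its use of strand and the annotation release are not given in the sources used here. Near-identical family members could therefore share reads that were not counted, since only unique positions were kept. Library totals were 10982191 to 14334544, and intervals from counting were not used because breeds were compared over animals. Replicates are separate animals. The Wnt members and all gene lists were chosen with earlier results of these data known.

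Counts were tested in R 4.3.3 with edgeR 4.0.16 (TMM, filterByExpr on breed, glmQLFit and glmQLFTest, breed as the only term, two-sided), with the thresholds of the study's methods (FDR below 0.05, absolute log2 fold change above 0.585). EBSeq, which the methods name, was not used. SE was obtained from the fold change and the F statistic. RPKM, joined by symbol for 23119 genes, served to compare levels between genes. Counts of members were set beside the share of all genes, and no test was run on a list. Values per library are given for members called, with an unadjusted p below 0.05, or with breeds apart and a mean of at least 20 normalized counts, and for the member of each role with the highest mean RPKM. Among other pathway and target genes, those called were named, at most 10, and further ones are said to have been named after their values were seen. Counts without the members that passed the filter in QHMM alone were added after the data were seen.

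Alternatives were DESeq2 1.42.0, upper-quartile factors, omission of the low-count filter, a stricter filter of 10 counts in all libraries, no minimum fold change, the replicate number as a block, limma-trend (limma 3.58.1) of RPKM on a log2 scale with a pseudocount of 1 or 0.1 where RPKM reached 1 in 3 libraries, the first also without that limit, each library left out, and QHMM replicate 2 and STH replicate 3 both left out. Running these also for the pathway, target and marker lists was added after the data were seen. The scripts were tested on simulated data. Plots were drawn with matplotlib 3.10.9. All 51 symbols were matched to a RefSeq gene table of another assembly, which was used for names only, so no coordinates are given, and sequences were not used here.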

Additional observations from a re-analysis of the deposited data

How the results depend on the processing

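Of the called members, FRZB and FZD7 were called under every alternative except with QHMM replicate 2 and STH replicate 3 both left out, where all 5 kept their negative sign and 0 members, 0 other pathway genes and 0 adipocyte markers were called. In place of 5, DESeq2 called 9 members (25%, against 3.91% of all genes lower in STH). Without a filter on low counts 8 were called (17.4%, against 2.49%), and with at least 10 counts in every library 3 (11.5%, against 2.21%). Limma-trend on log2(RPKM + 1) without a filter called 2 (4.35%, against 0.136%). With 1 library left out, 2 to 7 members were called. In place of 1, other pathway genes called were 2 by DESeq2, without the filter and by limma-trend with either pseudocount, 0 by limma-trend without a filter, and 0 to 2 with 1 library left out. The gene called without STH replicate 2 was RSPO3, lower in STH (log2 fold change -2.40, FDR = 0.0300), and the others, RNF146 and CSNK1D, were higher. In place of 0, target genes called were 2 by DESeq2, 3 without the filter, 2 with the replicate block, 1 by limma-trend with either pseudocount, and 0 to 1 with 1 library left out. In place of 4, adipocyte markers called were 2 by limma-trend with either pseudocount, 0 without its filter, and 1 to 4 with 1 library left out. In place of 0, fibroblast markers called were 3 by DESeq2, 3 without the filter, 2 with the replicate block, and 0 to 1 with 1 library left out. All genes called lower and higher were 543 and 413 of 13894 by DESeq2 and 440 and 366 of 17668 without the filter. They were 256 and 201 of 12506 with the block. By limma-trend, they were 134 and 212 of 11140 with pseudocount 1 and 125 and 203 with 0.1. Without its filter, they were 24 and 54 of 17644. Without 1 library, the fewest were 81 and 50 of 12751 (QHMM replicate 1) and the most 252 and 283 of 12700 (STH replicate 1). The cause of the changes between fits was not tested.

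Deviations of same-numbered libraries from their breed means correlated at 0.226, -0.0380 and -0.130. Among all pairs of a QHMM and an STH library, the largest value was 0.287, for QHMM replicate 2 and STH replicate 3. Deviations from a mean of 3 are not independent, so these values cannot decide whether the numbers pair the animals. The labels do not say. With the replicate number as a block, 5 members were called, the same genes as without it. On the RPKM scale the median of all genes shifted to 0.12 (pseudocount 1) and 0.14 (0.1) from 0.02, and 134 genes were called lower and 212 higher with pseudocount 1, against 229 and 203 on counts. On that scale, the sign turned for APC (0.053 and 0.058), DKK3 (0.051 and 0.077), TCF7L2 (0.053 and 0.059), WNT11 (0.046 and 0.054) and FZD1 (0.0028, pseudocount 1). With both libraries out it turned for BCL9 (-0.039), TCF7L2 (0.025) and WNT9A (-0.75), and with the block for WNT9A (-0.0047). With 1 library left out, log2 fold changes that turned ranged as APC -0.27 to 0.15, AXIN1 -0.49 to 0.10, BCL9 -0.16 to 0.18, DKK3 -0.37 to 0.19, FZD1 -0.43 to 0.21, FZD10 -0.99 to 0.27, FZD3 -0.93 to 0.051, FZD4 -0.016 to 0.60, FZD6 -0.64 to 0.081, TCF7L2 -0.22 to 0.048, WNT11 -0.15 to 0.086, WNT2B -0.15 to 0.75 and WNT9A -0.67 to 0.65. None of these genes was called. The 18 untested members had too few counts at this depth for a comparison.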
